A study of Mus musculus with 8 samples.

Results

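The genes described here are 37 genes of microglia and macrophages, measured on microarrays of cultured mouse optic nerves kept with or without lithium. They were chosen by name, and each was read from the probe sets annotated to its symbol alone, taking the probe set with the highest mean log2 signal over the 8 arrays. All 37 had such a probe set, among 18193 genes measured in the same way. They fall into 8 genes of homeostatic microglia, 12 genes shared by myeloid cells, 8 genes of Fc receptors, activating adaptors and the phagocyte oxidase, 6 genes of activated phagocytes and 3 genes of perivascular macrophages.

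Microglia are the resident phagocytes of the central nervous system, and in the optic nerve they lie between the axons and glia of the white matter. At rest they scan the tissue and carry receptors such as P2ry12, which senses nucleotides, and Cx3cr1, which senses the chemokine fractalkine. After injury or in contact with debris they turn down such genes and take up lipid and myelin, in part through Trem2, a surface receptor for lipids. Perivascular macrophages lie along vessels and in the sheath of the nerve, and they are recognised by scavenger receptors such as Cd163 and Mrc1.

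Optic nerves came from C57BL/6 mice aged 35 to 45 days, and every nerve was held in organotypic culture for 3 days after dissection, so that the control nerves had also been cut and cultured. Medium with saline was given to 4 control samples and medium with 20 mM lithium chloride to 4 lithium samples, and each sample was hybridised to its own array. The labels give 6 pooled nerves per sample, and neither they nor the methods state separate animals or cultures for the arrays of a group. The p-values therefore reflect just the scatter among these arrays, which may be technical. The arachnoid was removed, the retina was left attached, and no transgene or Cre is given for these samples, whose cells were a mixture of glia, vessels, sheath and immune cells. The methods of the paper name the C57/BL10 strain in place of the labelled one and count 12 nerves from 6 mice for the arrays, which is too few for 4 samples of 6 nerves in either group. The number of independent samples behind n = 4 is thus unsettled.

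The values are MAS5 signals, which are linear intensities scaled to the same trimmed mean on every array. They were compared as log2 values with limma over 45037 probe sets, and a gene was called at an adjusted p under 0.05. Array medians ran from 12.3 to 17.5, and lithium array 1 had both the lowest median and the highest 3′ to 5′ log2 difference of Gapdh, a sign of RNA quality (0.53, against 0.34 to 0.43 on the other 7 arrays). Of the 37 genes, 36 lay above the highest poly-A control probe set of the array on at least 7 of the 8 arrays. Slc2a5, a fructose transporter used as a microglial marker, was above it on 1 lithium array and on no control array, and it is given as not above background. Tmem119, P2ry12 and Cx3cr1, which mark microglia, and Csf1r and Aif1, which mark microglia and macrophages together, were above it on all 8 arrays.

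In lithium, 4 of the 37 genes fell and 0 rose, in a fit without a term for the replicate number (the replicate block). The 4 were Trem2, Tyrobp, Cybb and Cyba. With the replicate block 0 of the 37 passed, and 63 of all 18193 genes fell. Trem2 is a receptor that signals through the adaptor Tyrobp, also called DAP12, and Cybb and Cyba encode the membrane subunits of the NADPH oxidase with which phagocytes make superoxide. The 4 were 10.8% of the 37 genes, whereas 2.05% of all 18193 genes fell and 1.18% rose. Without adjustment, 14 of the 37 were lower at a p under 0.05 and 0 were higher, against 2296 and 1707 of all 18193 genes. In 13 of the 37 every lithium array lay below every control array (35.1%, against 8.92% of all genes), and in 0 every lithium array lay above (against 6.47% of all genes). The mean was lower in lithium for 27 and higher for 10, and the median log2 difference was -0.35, against -0.00 over all genes. In bulk samples such as these, fewer cells of a type and less RNA per cell cannot be told apart.

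The calls and medians of the 5 groups are given as a description. The groups were drawn with earlier results of these data known, so the place of the calls among them is no separate result. All 4 calls lay among the 8 Fc receptor, adaptor and oxidase genes (50% of the group, median log2 difference -0.80, groups of arrays separate for 6). Over all genes 2.05% fell and 8.92% were separate and lower, and 2296 of 18193 were lower at an unadjusted p under 0.05. At such a share of calls a small group mostly holds none, so the lack of calls in the other groups is no result. None of the 8 homeostatic genes was called (median -0.25, separate for 1, 1 lower at an unadjusted p under 0.05), and none of the 12 shared myeloid genes was (median -0.27, separate for 4, 4 lower unadjusted). None of the 6 activated phagocyte genes was called either, and theirs was the only group with a positive median (0.18, separate for 1, 1 lower unadjusted). That median was 0.10 within arrays 1 and 2 and -0.11 within arrays 3 and 4. The 25 further activated phagocyte genes given below had a median of -0.20. The 3 perivascular macrophage genes had the lowest median (-1.01, separate for 1, 2 lower unadjusted), and none passed.

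**Figure D1:**
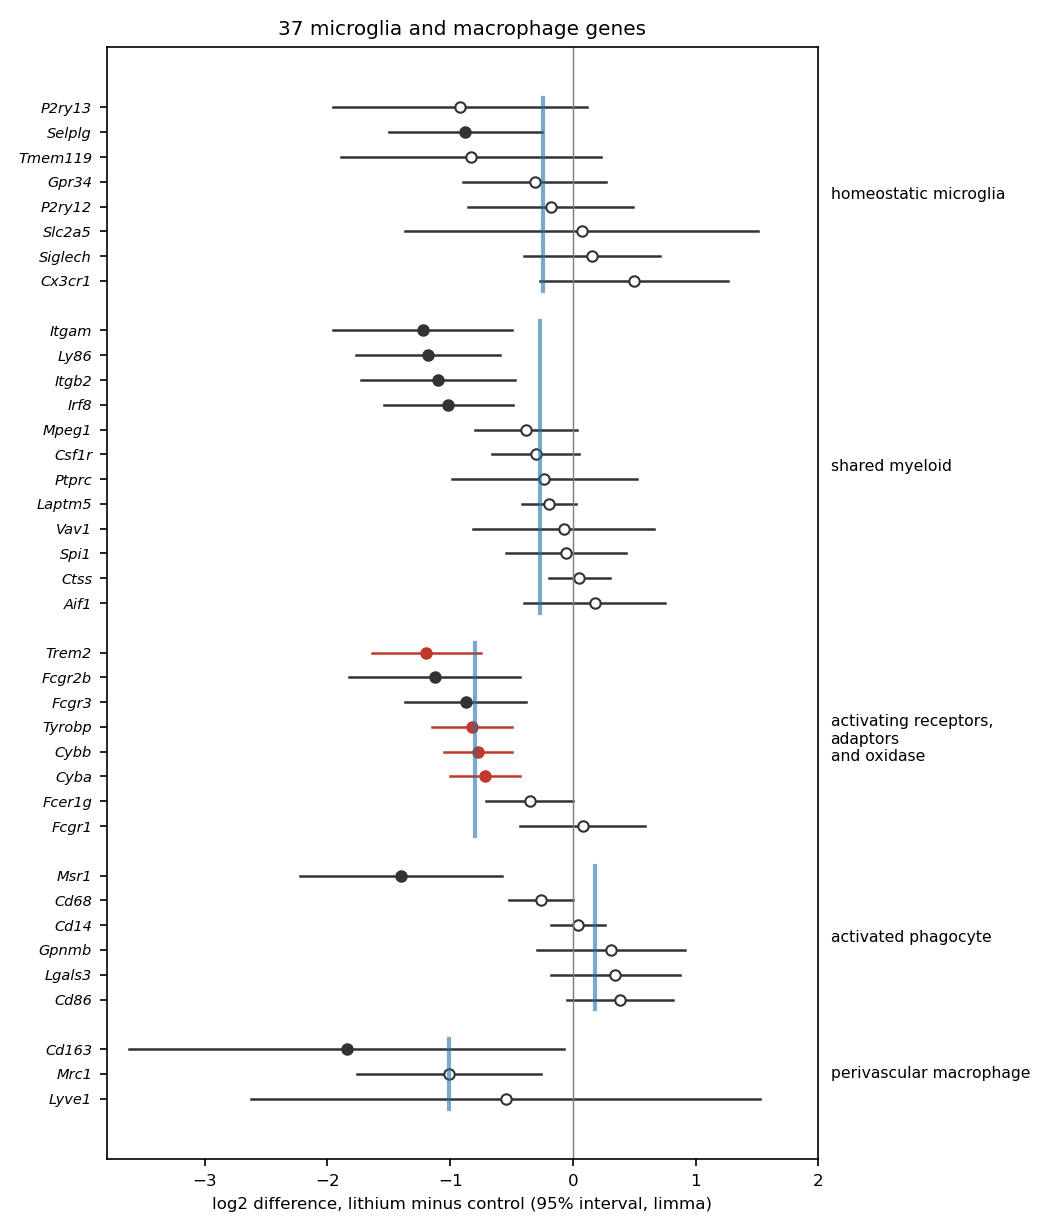
The log2 difference, lithium minus control, of each of the 37 genes on the horizontal axis, by gene group, with its 95% interval from limma (n = 4 arrays per group). Red marks the 4 genes past an adjusted p of 0.05, filled black those whose control and lithium arrays did not overlap without a call, open circles the rest, and the blue line is the median of the group. The called genes sit between -1.19 and -0.71, within the receptor, adaptor and oxidase group, which was drawn with earlier results known. These calls and intervals come from the fit without a replicate block.

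The promoters of 3 of the 4 genes that fell are shown because these genes moved together, as the 250 bases before a transcription start in RefSeq on GRCm38.p6. For Cybb that start lies inside the span of the gene given next, not at its 5′ end. The gene Trem2 lies on chromosome 17 at 48346401 to 48352276, Cyba on chromosome 8 at 122424771 to 122432940 and Cybb on chromosome X at 9435252 to 9487766. Tyrobp lies on chromosome 7 at 30413782 to 30417582. Each sequence is printed 5′ to 3′ on the strand of its gene, at chr17:48346151-48346400 (plus strand) for Trem2, chrX:9469325-9469574 (minus strand) for Cybb and chr8:122432941-122433190 (minus strand) for Cyba, and capitals mark GAGGAA or its reverse complement TTCCTC, the core letters bound by PU.1, the transcription factor encoded by Spi1.
Trem2: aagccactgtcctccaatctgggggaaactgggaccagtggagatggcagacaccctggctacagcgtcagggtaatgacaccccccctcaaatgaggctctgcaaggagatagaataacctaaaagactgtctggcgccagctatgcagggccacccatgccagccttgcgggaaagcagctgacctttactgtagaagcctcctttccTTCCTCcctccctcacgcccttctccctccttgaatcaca
Cybb: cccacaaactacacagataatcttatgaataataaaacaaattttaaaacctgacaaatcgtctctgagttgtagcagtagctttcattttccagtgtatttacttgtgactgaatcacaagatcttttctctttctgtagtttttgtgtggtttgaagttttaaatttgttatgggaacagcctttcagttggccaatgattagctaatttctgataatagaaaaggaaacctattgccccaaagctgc
Cyba: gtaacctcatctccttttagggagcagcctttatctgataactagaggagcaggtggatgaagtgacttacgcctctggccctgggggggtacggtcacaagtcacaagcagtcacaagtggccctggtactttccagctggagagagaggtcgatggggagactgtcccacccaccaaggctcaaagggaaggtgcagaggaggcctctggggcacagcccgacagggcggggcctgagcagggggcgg
The Trem2 window held the letters 1 time, on the opposite strand and 35 bases before the start, and the windows of Cybb and Cyba held no match. On either strand the letters stood before the start of 12 of the 26 genes whose promoters were read (46.2%). Among the 12 were Itgam, Fcgr3, Cd68 and Ctss. The share was 25.9% of 27025 genes of the genome. The rest of the 37 genes, Csf1r and Cd14 among them, were left out of the 26. The genes of the genome were not limited in the same way, so the shares come from unlike sets and were not tested against each other. The longer form GAGGAAGT, which overlaps the shorter, was found for 1 of the 26 genes, Vav1 (3.85%), against 2.79% of the genes of the genome. Such matches describe letters and not binding, and of the 12 genes only Trem2 passed the test.

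Trem2 (probe set 1421792_s_at) had a signal of 121, 90.6, 99.2 and 125 on control arrays 1 to 4 and of 55.9, 34.1, 53.5 and 48.5 on lithium arrays 1 to 4. Every lithium array lay below every control array. The control mean was 109 ± 16.7 and the lithium mean 48.0 ± 9.74 (SD, n = 4 each), 2.29-fold lower, with a log2 difference of -1.19 (standard error 0.19, adjusted p = 0.0335 from limma). The same direction was found within all 4 replicate numbers, from -1.41 to -0.89. The suffix _s_at marks probes that match more than 1 transcript, and the other probe set of the gene, near 1 in both groups, gave no measurement.

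Tyrobp, the adaptor that carries the signal of Trem2 and of several other myeloid receptors into the cell, was at 936, 823, 857 and 1008 on control arrays 1 to 4 and at 441, 450.4, 632 and 545 on lithium arrays 1 to 4. The highest lithium array, number 3, was still below the lowest control array. Tyrobp fell from 906 ± 82.6 to 517 ± 90.0 (SD, n = 4 each), 1.77-fold, with a log2 difference of -0.82 (standard error 0.14, adjusted p = 0.0374 from limma). This gene was measured by 1 probe set, 1450792_at.

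Cybb, the glycoprotein subunit through which the oxidase passes electrons, had signals of 35.4, 34.4, 38.8 and 34.5 on control arrays 1 to 4 and of 18.3, 25.2, 18.7 and 22.1 on lithium arrays 1 to 4. The control arrays were close to each other and the lithium arrays all lay below them. The mean fell from 35.8 ± 2.05 to 21.1 ± 3.26 (SD, n = 4 each), with a log2 difference of -0.77 (standard error 0.12, adjusted p = 0.0314 from limma). Its other probe sets gave -0.78 (adjusted p = 0.401) and -0.37 (adjusted p = 0.668).

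Cyba, the smaller subunit that holds Cybb in the membrane, read 600.1, 518, 582 and 671 on control arrays 1 to 4, against 350.3, 302, 401 and 394 on lithium arrays 1 to 4. All lithium arrays were below all control arrays. Cyba fell 1.64-fold, from 593 ± 63.0 to 362 ± 45.6 (SD, n = 4 each), with a log2 difference of -0.71 (standard error 0.12, adjusted p = 0.0385 from limma). Both membrane subunits were thus lower, each measured by its own probe set.

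The calls of these 4 genes were near the threshold. With the replicate number as a block, the adjusted p from limma was 0.0610 for Trem2, 0.0863 for Tyrobp, 0.0939 for Cybb and 0.0610 for Cyba, so that none passed. With 1 array left out, Trem2 passed without lithium array 2 (adjusted p = 0.0449) and with no other array left out (up to 0.0902), and Cybb passed without lithium array 2 (0.0317) and no other (up to 0.0823). Tyrobp passed without lithium array 3 (0.0407) and no other (up to 0.0982), and Cyba in none of the 8 (0.0602 to 0.101). In these fits 60 to 238 of all genes fell, against 373 with all 8 arrays. After median centring none of the 4 passed (0.0560 for Trem2, 0.0711 for Tyrobp, 0.0856 for Cybb and 0.127 for Cyba), with log2 differences of -1.11, -0.73, -0.69 and -0.63. With the probe sets of a gene averaged, Trem2 (-0.56, adjusted p = 0.402) and Cybb (-0.64, adjusted p = 0.122) did not pass. The log2 differences stayed negative in all of these fits.

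**Figure D2:**
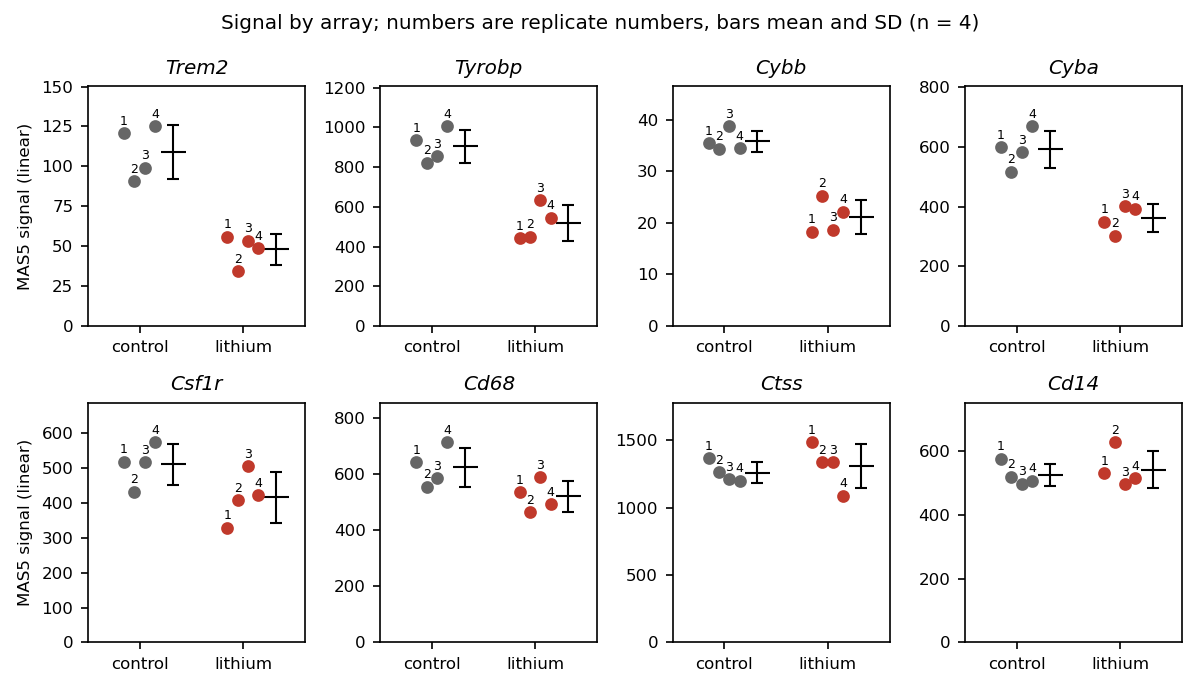
MAS5 signal on a linear axis from 0 for the 4 genes that fell (upper row) and for Csf1r, Cd68, Ctss and Cd14, chosen as genes whose groups overlap (lower row), 1 point per array labelled with its replicate number, and bars for the mean and SD of 4 arrays. In the upper row no lithium array reaches a control array (for Tyrobp at most 632 against at least 823), while in the lower row they do.

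Other macrophage genes on the same arrays covered a wide range. Csf1r, the receptor for the survival factors Csf1 and Il34, was at 518, 432, 516 and 573 on control arrays 1 to 4 and at 329, 408, 505 and 421 on lithium arrays 1 to 4, so that the groups overlapped (log2 difference -0.30, 95% interval -0.66 to 0.05, standard error 0.15, adjusted p = 0.353 from limma). Cd68, a lysosomal protein of phagocytes, was at 641, 554, 584 and 711 on control arrays 1 to 4 and at 534, 464, 588 and 491 on lithium arrays 1 to 4, again with overlap (-0.26, 95% interval -0.52 to 0.00, standard error 0.11, adjusted p = 0.280). In contrast Itgam, Ly86, Itgb2 and Irf8 had log2 differences from -1.22 to -1.02, within or beyond the range of the 4 called genes, with separate groups and wider spreads. The 4 calls therefore do not mark these genes as the ones that moved most, and no test of their difference from other macrophage genes was made.

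The remaining genes of the group are the Fc receptors, which bind antibody, and their shared adaptor. Fcgr3, an activating receptor, had a control mean of 790.1 ± 61.3 and a lithium mean of 444 ± 124 (SD, n = 4 each; log2 difference -0.87, adjusted p = 0.0857 from limma), without overlap and without a call. Fcgr2b, the inhibitory receptor of the family and thus no activating gene, had 641 ± 46.0 and 314 ± 130 (SD, n = 4 each; -1.13, adjusted p = 0.106), also without overlap. A dimmer probe set of Fcgr2b did pass (-1.66, adjusted p = 0.0423). In contrast the high-affinity receptor Fcgr1 had a difference of 0.08 (95% interval -0.43 to 0.59), and the adaptor Fcer1g, which serves Fcgr1 and Fcgr3, had -0.35 (adjusted p = 0.281), both with overlapping arrays.

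Among homeostatic microglial genes no call was made in either direction. P2ry12, which guides microglial processes to released nucleotides, was at 55.1, 42.2, 26.1 and 28.5 on control arrays 1 to 4 and at 40.2, 23.6, 31.1 and 35.4 on lithium arrays 1 to 4 (log2 difference -0.18, 95% interval -0.85 to 0.49, standard error 0.28, adjusted p = 0.807 from limma). The groups overlapped through most of their range. Tmem119, a membrane protein used to tell microglia from other macrophages, was at 58.7, 43.7, 86.1 and 131 and at 28.9, 26.6, 60.2 and 62.8 in the same order (-0.83, standard error 0.45, adjusted p = 0.406). Its control arrays spread from 43.7 to 131, and the lithium array was lower within all 4 replicate numbers, from -1.07 to -0.52.

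Selplg, the ligand of selectins, was the only homeostatic gene without overlap, at 118, 97.2, 100.3 and 140 on control arrays 1 to 4 and at 40.3, 53.3, 86.6 and 76.2 on lithium arrays 1 to 4 (log2 difference -0.88, standard error 0.26, adjusted p = 0.142 from limma). P2ry13, a nucleotide receptor related to P2ry12, was at 43.6, 37.1, 27.7 and 60.01 and at 10.7, 17.2, 30.0 and 37.4 in the same order (-0.92, standard error 0.44, adjusted p = 0.337). Its lithium arrays 1 and 2 lay below all controls, and lithium arrays 3 and 4 lay among them. Cx3cr1 had a difference of 0.50 (95% interval -0.27 to 1.26), Siglech, a lectin of microglia, 0.16 and Gpr34, a lipid receptor, -0.31, all with overlap and adjusted p-values from 0.499 to 0.799. Thus the named homeostatic genes had differences of both signs.

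Of the 12 genes shared by myeloid cells, 4 were separate and lower without a call. Ly86, which pairs with a Toll-like receptor homologue, was at 226, 157, 147 and 242 on control arrays 1 to 4 and at 58.4, 79.7, 98.3 and 104 on lithium arrays 1 to 4 (log2 difference -1.18, standard error 0.25, adjusted p = 0.0637 from limma). Irf8, a transcription factor needed for microglial development, was at 122, 94.5, 129 and 121 and at 37, 66.8, 64.6 and 67.6 in the same order (-1.02, standard error 0.22, adjusted p = 0.0713). Lithium array 1, the array of the lowest median, stood below the other lithium arrays for Irf8. Itgam and Itgb2, which form the complement receptor CR3, had differences of -1.22 (adjusted p = 0.0975) and -1.10 (adjusted p = 0.0896).

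The other 8 shared genes overlapped between groups. Spi1, the myeloid factor PU.1, had a difference of -0.06 (95% interval -0.55 to 0.43), Ctss, a lysosomal protease, 0.05 (-0.20 to 0.30), and Laptm5, a lysosomal membrane protein, -0.19 (-0.41 to 0.03). Ptprc, the leukocyte antigen CD45, had -0.23, Mpeg1, a pore-forming protein of macrophages, -0.38, Vav1, a signalling protein of blood cells, -0.08, and Aif1, the marker IBA1, 0.18. For these and Csf1r the adjusted p-values ran from 0.319 to 0.957.

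**Figure D3:**
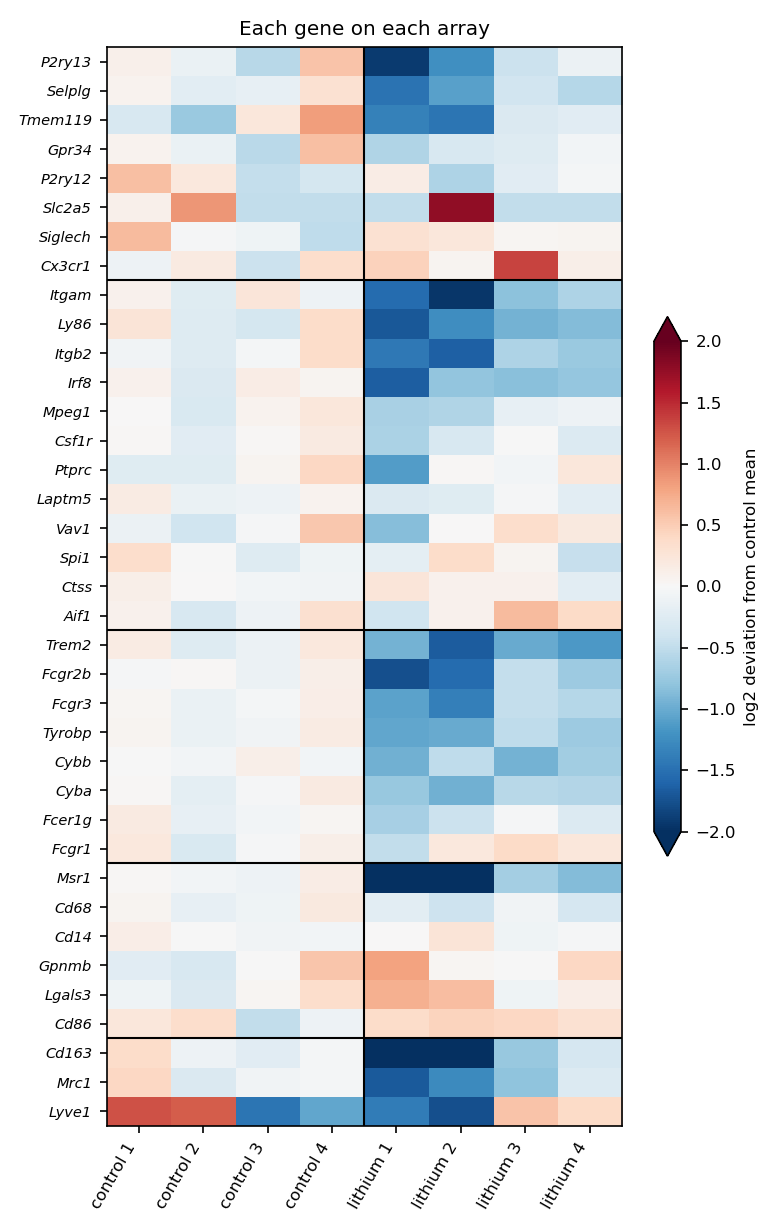
Deviation of each of the 37 genes (rows, by group) on each of the 8 arrays (columns) from the mean log2 signal of the 4 control arrays, blue for lower and red for higher, with colours capped at 2. The receptor, adaptor and oxidase rows lie below the control mean on all 4 lithium arrays for 7 of 8 genes, all but Fcgr1 (Fcer1g on lithium array 3 only just), Msr1, Cd163 and Mrc1 are darkest on lithium arrays 1 and 2, and Lyve1 changes sign between arrays 1 and 2 and arrays 3 and 4 in both groups.

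The 6 genes of activated phagocytes did not share a direction. Msr1, a scavenger receptor for modified lipoproteins, was at 603, 569, 551 and 659 on control arrays 1 to 4 and at 145, 146, 372 and 325 on lithium arrays 1 to 4 (log2 difference -1.40, standard error 0.35, adjusted p = 0.0952 from limma). No lithium array reached a control array, arrays 1 and 2 were the lowest, and all 4 of its probe sets were lower. Lgals3, a galactose-binding lectin, had 0.35 (95% interval -0.18 to 0.87), Gpnmb, a glycoprotein of lipid-laden macrophages, 0.31 (-0.29 to 0.92), and Cd86, a ligand that costimulates T cells, 0.38 (-0.05 to 0.82). Cd14, a co-receptor for bacterial lipopolysaccharide, had 0.04 (-0.18 to 0.26). Lgals3 and Gpnmb changed sign between sets of arrays, with 0.86 and 0.69 within arrays 1 and 2 and -0.16 and -0.06 within arrays 3 and 4. Cd86 was higher in both, at 0.12 and 0.65.

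The perivascular macrophage genes were low on average but differed between arrays of a group. Cd163, the haemoglobin scavenger receptor, was at 57.4, 41.3, 37.9 and 43.3 on control arrays 1 to 4 and at 3.29, 7.70, 26.2 and 35.2 on lithium arrays 1 to 4 (log2 difference -1.84, standard error 0.75, adjusted p = 0.262 from limma). Lithium array 1 was under the highest poly-A control. Mrc1, the mannose receptor CD206, was at 70.2, 43.3, 50.1 and 51.2 and at 16.5, 21.8, 30.1 and 43.9 in the same order (-1.01, standard error 0.32, adjusted p = 0.157), with lithium array 4 just above the lowest control.

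Lyve1, a hyaluronan receptor of macrophages and lymphatic vessels, is given on every array because its values were seen to change side. It was at 70.2, 67.3, 10.6 and 14.2 on control arrays 1 to 4 and at 11.0, 8.60, 43.2 and 37.8 on lithium arrays 1 to 4. The difference was -2.82 within arrays 1 and 2 and 1.72 within arrays 3 and 4, so that the pooled value of -0.55 (adjusted p = 0.813) described neither. Over the 3 genes the median difference was -2.82 within arrays 1 and 2 and -0.42 within arrays 3 and 4, and the labels give no batch for these numbers.

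**Figure D4:**
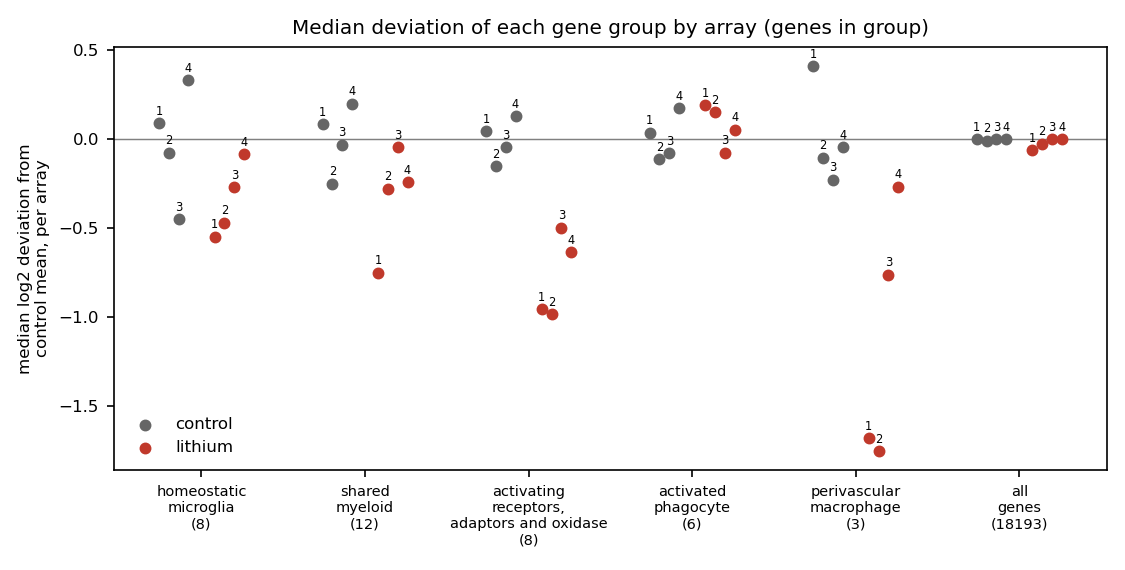
Median log2 deviation from the control mean over the genes of each group, 1 point per array labelled with its replicate number, with the number of genes in brackets and all 18193 genes at the right. The receptor, adaptor and oxidase group lies between -0.98 and -0.50 on the lithium arrays and between -0.15 and 0.13 on the control arrays, and the perivascular group reaches -1.75 on lithium array 2 and -0.27 on lithium array 4.

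Other genes of the same pathways were read from lists, each given as the number that passed. Over all genes 2.05% fell and 1.18% rose, and 8.92% were separate and lower. At an unadjusted p under 0.05, 2296 of all 18193 genes were lower and 1707 were higher. Of 9 signalling genes that act after the motifs of Tyrobp and Fcer1g, 0 passed (median -0.41, 4 lower at an unadjusted p under 0.05), and the lowest adjusted p was that of the kinase Btk (-0.63, adjusted p = 0.159 from limma). Of 5 further oxidase subunits, 0 passed (median -0.33, 2 lower unadjusted), with the cytosolic subunit Ncf1 at -0.60 (adjusted p = 0.185). All 5 had negative differences, and the arrays were separate for 1.

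Of 14 further homeostatic genes, 0 passed (median -0.22, 3 lower and 2 higher unadjusted), with Crybb1, a crystallin present in microglia, nearest at 1.85 (adjusted p = 0.0562). Of 19 further shared myeloid genes, 1 fell and 0 rose (median -0.63), while 12 were lower and 1 was higher at an unadjusted p under 0.05 and the arrays were separate and lower for 6 (31.6%). The 1 was Lcp1, the actin-bundling protein of leukocytes, which went from 509.9 ± 17.9 to 316 ± 36.0 (SD, n = 4 each; log2 difference -0.70, adjusted p = 0.0201, or 0.0795 with the replicate block). Of 13 further border macrophage genes, 0 passed (median 0.06, 2 lower and 1 higher unadjusted), with the scavenger receptor Colec12 nearest at -2.29 (adjusted p = 0.0953). Of 7 genes of class II antigen presentation, 0 passed (median 0.12, 0 unadjusted), with Ctsh, a lysosomal protease, nearest at -0.20 (adjusted p = 0.464).

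Of 25 further activated phagocyte genes, 4 fell and 0 rose (16%, median -0.20), while 10 were lower and 2 were higher unadjusted and the arrays were separate and lower for 10 (40%). Lpl, a lipase of lipid-handling phagocytes, went from 177 ± 39.2 to 66.3 ± 12.7 (SD, n = 4 each; log2 difference -1.41, adjusted p = 0.0234, or 0.0901 with the replicate block). Chil3, a chitinase-like protein of macrophages and monocytes, was not above the poly-A controls on any lithium array and was at least 3.52-fold lower (adjusted p = 0.0314, or 0.0477 with the block). The others were the integrin Itgax (at least 1.47-fold lower, adjusted p = 0.0355, or 0.103 with the block) and the chemokine Ccl3 (-1.10, adjusted p = 0.0368, or 0.0717), both named after their values were seen. For Itgax 3 of 4 control arrays and no lithium array were above the poly-A controls.

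Of 15 ligands and checkpoint signals of microglia, 1 rose and 2 fell (median -0.29), while 7 were lower and 1 was higher unadjusted, and none of the 3 calls held with the replicate block. Csf2, a growth factor of myeloid cells, went from 22.7 ± 5.75 to 130 ± 58.1 (SD, n = 4 each; log2 difference 2.45, adjusted p = 0.0312 from limma, or 0.0563 with the block), and Csf2rb, the signalling chain of its receptor, went lower, with a log2 difference of -0.86 (adjusted p = 0.0465, or 0.0822). Tgfb1, which maintains homeostatic microglia, went from 120.4 ± 25.2 to 35.9 ± 13.9 (SD, n = 4 each; -1.81, adjusted p = 0.0392, or 0.0540). The survival ligands of Csf1r, Csf1 (0.20, adjusted p = 0.391) and Il34 (0.14, adjusted p = 0.846), did not pass.

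Markers of other cells moved on the same arrays, where 2.05% of all genes fell and 1.18% rose. Neutrophils, which also express Tyrobp, Cybb, Cyba, Fcgr3, Selplg, Itgam and Itgb2, were followed by 10 marker genes, of which 3 fell and 0 rose (4 lower unadjusted). Their summed signal was 475 to 732 on control arrays and 59.9 to 117 on lithium arrays, of which S100a8 alone made 244 to 401 and 20.2 to 51.8. The markers S100a9 (-1.81, adjusted p = 0.377 from limma) and Csf3r (-0.24, adjusted p = 0.723) overlapped between groups. S100a8, a calcium-binding protein of neutrophil cytosol, had a difference of -3.26 (adjusted p = 0.0162 from limma, or 0.0540 with the replicate block), Camp, a granule peptide, -2.58 (adjusted p = 0.0201, or 0.0394) and Ltf, the granule protein lactoferrin, -3.40 (adjusted p = 0.0201, or 0.0775), while 3 of the 10 were not above the poly-A controls on any array. Of 6 monocyte markers, 1 rose (Ms4a4c, a membrane protein, 2.42, adjusted p = 0.0478, or 0.0907 with the block) and 1 fell (Chil3), with sums of 650 to 852 in controls and 463 to 678 in lithium. The part of these cells in the 4 calls was not tested.

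Markers of T, B and natural killer cells (0 of 10 called and 0 unadjusted, sums of 21.2 to 49.1 in controls and 17.9 to 34.7 in lithium, lowest adjusted p 0.318 for Cd3e) and of dendritic cells (0 of 6 and 0 unadjusted, sums of 81.3 to 118 and 46.7 to 101, lowest adjusted p 0.596 for Itgae) did not pass. For the glia and stroma of the nerve, 0 of 12 astrocyte markers (1 lower unadjusted, lowest adjusted p 0.114 for Aldoc) and 0 of 9 oligodendrocyte markers (0 unadjusted, lowest adjusted p 0.411 for Opalin) passed, while 1 of 10 endothelial markers, Kdr (4 lower unadjusted), and 3 of 10 fibroblast markers, Col3a1, Pdgfrb and Lum (8 lower unadjusted), fell. With the replicate block these 4 had adjusted p-values of 0.0989, 0.0663, 0.0550 and 0.125. The fibroblast markers had a median of -1.60, with sums of 3741 to 5984 in controls and 915 to 2655 in lithium. Their part in the lower values of the perivascular genes, which share the sheath and the vessel wall with these cells, was not tested.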

How the data were processed

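For these Affymetrix arrays the authors deposited MAS5 signals, which are linear intensities scaled to the same trimmed mean (2% left out at each end), made with GeneSpring GX, and detection calls were not used here. Of 45101 probe sets, 64 controls were left out and 45037 tested. Symbols came from the platform annotation (34958 probe sets with 1 symbol), and all 37 genes were found in RefSeq under the same symbol. Signals were floored at 1, which applied to 14.5% of values, taken to log2 and compared in R 4.3.3 by lmFit with eBayes (limma 3.58.1), with p-values adjusted by Benjamini-Hochberg over every probe set tested. Linear signals gave the means and SDs, and mean log2 values gave the folds. The floor and the choice of probe set could change the values of dim genes, and having 4 arrays in a group limits the precision.

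The 37 genes, their division into 5 groups, the 16 lists of other genes (197 entries, 180 measured, a few genes standing in more than 1 list) and the tests were chosen with earlier results of these data known. Named in full are the genes past the threshold, the 2 with the lowest adjusted p in each group, and Trem2, Tyrobp, Csf1r, P2ry12, Tmem119, Mrc1 and Cd68. Of each other list, up to 2 genes in a direction past 0.05 are named, or else the gene of lowest adjusted p, and genes beyond this rule were chosen after their values were seen. Where a group lay under the highest of 27 poly-A control probe sets on all its arrays, the fold is a bound against that signal. After subtraction of its group mean, each array correlated with the array of the same number in the other group (0.130 to 0.197, all over 0.1). Arrays of different numbers correlated at 0.071 to 0.131 within 1 and 2 or within 3 and 4, and at -0.181 to -0.066 across them, so that number pairs are not told apart from these sets of arrays. By the limit alone the numbers would count as pairs, but the reported fit had no replicate block. The value with the replicate block is given where it changes a call. Alternatives were quantile normalization, median centring, log2 of the signal plus 16, limits on level (200, or above poly-A controls), averaging the probe sets of each gene, no _x_at or _s_at probe sets, weights for arrays, a robust variance with a trend, the replicate block, a term that sets arrays 1 and 2 apart from 3 and 4, and leaving out each array. The fit was tested on simulated data. Plots were made in Python 3.11.15 (matplotlib 3.10.9).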

Additional observations from a re-analysis of the deposited data

Results flagged for a closer look

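Of 74 groups of 4 arrays, 1 group per gene and treatment, 2 held an array far from the other 3 by Dixon's ratio of the gap to the range, and chance alone marks about 1 in 20 groups. For Slc2a5 the ratio was 0.961 in lithium (above the 95% critical value), with array 2 at 4.79 and the next at 0.721, in a gene not above background on the other arrays. For Irf8 it was 0.903 in lithium, with array 1 at 37 and the next at 64.6.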

How the results depend on the processing

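The number of the 37 genes that fell was 4, and 0 rose in the reported fit and in each of the 19 alternatives. The share of all genes that fell in the same fit is in brackets. The count was 6 after quantile normalization (2.64%), 1 (Irf8) after median centring (2.36%) and 7 with 16 added to the signal (3.47%). At a level of 200 it was 6 of 16 (5.21% of the genes at that level), and above the poly-A controls 10 of 36 (5.41%). With all probe sets of a gene averaged it was 2, Tyrobp and Cyba (1.73%), and without _x_at and _s_at probe sets 3 of 36 (2.04%). A trended and robust variance gave 8 (3%) and array weights gave 4 (2.23%). It was 12 with a term for arrays 1 and 2 against 3 and 4 (5.71%). With the paired design (replicate block) limma gave 0 after adjustment and 15 lower at an unadjusted p under 0.05, and over all genes 63 fell and 9 rose, against 373 and 214 without the block. With 1 array left out it ran from 0 to 2, while the number of all genes that fell ran from 60 to 238 (0.33% to 1.31%). The median centring moved the median of all genes to 0.08, and the cause of these changes in count was not tested. The median of the activated phagocyte genes was 0.18, and 0.041 over the 5 at a level of 200. No group's median changed sign in the named alternatives.

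Differences that changed sign were all of genes that did not pass in that fit. After quantile normalization Spi1 was at 0.017, Vav1 at 0.0037 and Ctss at -0.010, after median centring Spi1 at 0.028 and Vav1 at 0.012, with the mean of probe sets Ptprc at 0.12, Laptm5 at 0.10 and Vav1 at 0.15, without _x_at and _s_at probe sets Laptm5 at 0.72 and Trem2 at 0.068, read from dim probe sets, and with array weights Slc2a5 at -0.16, Vav1 at 0.10 and Cd14 at -0.00073. With 1 array left out, P2ry12 ran from -0.34 to 0.019, Spi1 from -0.20 to 0.075, Fcgr1 from -0.021 to 0.27, Slc2a5 from -0.49 to 0.37, Siglech from -0.016 to 0.37, Vav1 from -0.22 to 0.18, Ptprc from -0.39 to 0.060, Ctss from -0.011 to 0.14 and Cd14 from -0.031 to 0.086. Probe sets near the floor, such as Slc2a5, give no usable difference.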

Other observations

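Outside the comparisons above, Arg1, an arginase of macrophages, had a control mean of 1022 ± 84.3 and a lithium mean of 361 ± 183 (SD, n = 4 each; log2 difference -1.65, adjusted p = 0.0751 from limma). Clec7a, the fungal glucan receptor Dectin-1, had 164 ± 61.2 and 19.3 ± 16.8 (-3.61, adjusted p = 0.0714), and Axl, a receptor for dying cells, 480.4 ± 36.8 and 314 ± 43.8 (-0.62, adjusted p = 0.0504). For each of them no lithium array reached a control array, and none was called. Apoe, a lipid carrier that rises in activated microglia, had 707 ± 81.3 and 940.4 ± 326 (0.36, adjusted p = 0.479), with overlap. The 3 chains of the complement protein C1q had differences of -0.25 (C1qa), -0.19 (C1qb) and -0.48 (C1qc), all with overlap and adjusted p-values of 0.463, 0.583 and 0.201. These genes were chosen from the lists after their values were seen.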
